A study of Mus musculus with 12 samples.

Results

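The gene set is a module of 39 mouse genes that mark macrophages and their states, read across the 4 groups of an aortic RNA-seq study. The members were given by symbol, under a rule that uses no measured value, though they were picked with earlier results of these data known. The count table held 38 of them among its 27933 genes, all 38 passed the filter on low counts among 14621 genes tested, and Clec7a was not analysed here. The members were ordered by role as 8 resident-type genes, 5 recruited or lipid-associated genes, 11 genes of macrophage lineage and common function, 3 lysosomal genes, 6 recognition receptors and 5 genes of scavenging and of dead cell uptake.

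RNA came from the thoracic aorta of C57BL/6J mice, wild type (WT) or lacking, by their label (KO), the alpha7 nicotinic acetylcholine receptor, a ligand-gated ion channel encoded by Chrna7. From 5 months of age the mice breathed either room air or nicotine vapor for 12 weeks, and they were 8 months old when the aortas were taken. The 4 groups were WT in air (libraries 8, 9 and 10), WT in nicotine (6, 11 and 12), KO in air (1, 2 and 7) and KO in nicotine (3, 4 and 5), and values below follow that order of libraries. KO libraries thus carry the numbers 1 to 5 and 7, and WT libraries 6 and 8 to 12. The labels do not explain these numbers, and if they mark an order of handling, that order and the genotype cannot be told apart. The aorta was cleaned of fat and frozen whole, so each library holds RNA of all cells of the vessel wall. The labels do not give the knockout allele, the sex, or whether each library is a separate mouse, so the p-values measure how far libraries of a group scatter, which may in part be technical.

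Macrophages of the arterial wall include cells that settled early in life and renew locally, and cells that derive from blood monocytes. Resident cells of the outer wall commonly carry LYVE1, the mannose receptor MRC1, the folate receptor FOLR2 and TIMD4. Monocyte-derived cells arrive through the chemokine receptor CCR2, and in lipid-rich lesions macrophages take on TREM2, GPNMB and galectin-3. Growth and survival of both kinds depend on the receptor CSF1R and on the transcription factor PU.1, encoded by Spi1.

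Library totals ran from 10240031 counts (WT nicotine 6) to 12628323 (WT air 9), and no member had a count of 0 in any library. Members took 0.177 to 0.253% of the counts, and the scarcest, Trem2, had 3 to 16 counts per library. Levels are given as CPM, counts scaled to library size after correction by the trimmed mean of M values (TMM). Smooth muscle markers of the aorta (8 of 8 detected in each library) summed to 23941 to 48252 CPM, and adipocyte markers to 748 to 5177 CPM although the vessels had been cleaned. Chrna7 had 22 to 37 counts in WT air, 9 to 26 in WT nicotine, 18 to 28 in KO air and 8 to 25 in KO nicotine. KO against WT in air its log2 fold change was -0.36 ± 0.45 (SE; edgeR quasi-likelihood adjusted p = 0.995), and in nicotine 0.067 ± 0.47 (edgeR adjusted p = 0.982). Chrna7 counts therefore did not separate the labelled genotypes, and as a deleted stretch of the gene can leave reads elsewhere in it, a count over the whole gene does not check the label. Where a direction below is given for KO it is that of the libraries labelled KO.

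The macrophage label held at the level of detection. The lineage genes Csf1r, Adgre1, which encodes F4/80, Cd68, a lysosomal membrane glycoprotein, and Spi1 were counted in all 12 libraries, at 38.1 to 93.5, 8.16 to 26.7, 5.85 to 15.2 and 4.61 to 10.8 CPM. In bulk tissue, fewer cells of a type and less RNA per cell cannot be told apart. Axl and Mertk, receptor tyrosine kinases that bind dead cells through the bridging ligand Gas6, together with Gas6 and the scavenger receptor Stab1, made 49.7 to 66.0% of all member counts, and other cells of the vessel wall are known to make Axl and Gas6.

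Compared between genes, levels were divided by the summed exon length of each gene. In WT air Gas6 led at 150 ± 27.3 CPM per kb (SD, n = 3), before Axl at 132 ± 21.3, a difference within the spread of either gene. Cbr2, a carbonyl reductase, followed at 112 ± 17.1 CPM per kb and Lyz2, the macrophage lysozyme, at 77.0 ± 10.6 CPM per kb. Among resident-type genes, Pf4, the chemokine of platelets and some macrophages, stood at 35.8 ± 7.64 CPM per kb. F13a1, Lyve1, Mrc1 and Cd163 lay between 6.96 and 10.3 CPM per kb, Folr2 at 4.11 ± 0.879 and Timd4 at 0.503 ± 0.194 CPM per kb. Of the recruited or lipid-associated genes, Lgals3 stood at 4.01 ± 1.45, Gpnmb at 3.63 ± 0.390, Ccr2 at 0.80 ± 0.229, Itgax at 0.301 ± 0.0685 and Trem2, the lowest of the 38, at 0.176 ± 0.0827 CPM per kb.

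Nicotine against air in WT aorta asks whether inhaled nicotine moves macrophage transcripts where the receptor is intact. No member passed the adjusted threshold in edgeR (0 of 38 higher, where 0.0205% of all genes passed higher and 0% lower). Log2 fold changes were above 0 for 33 of 38 members, against 49.4% of all genes, and the members' median was 0.76 against 0.00 for all genes. At an unadjusted p under 0.05 edgeR placed 14 members higher (5.43% of all genes) and 1 lower (4.41%). All 3 nicotine libraries lay above all 3 air libraries for 15 members (7.13% of all genes), and below them for 1 (6.05%). The members were picked with earlier results of these data known, so these shares are a description. DESeq2 called 4 members (0.803% of genes) and limma voom none (0.0205%).

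Of the 8 resident-type genes, 7 were above 0 in WT nicotine (49.4% of all genes). At an unadjusted edgeR p under 0.05, 5 were higher (5.43% of all genes) and 1 lower (4.41%). Mrc1, the mannose receptor that binds glycoproteins, measured 53.6, 39.6 and 41.9 CPM in WT air and 117, 84.2 and 96.0 CPM in WT nicotine. The lowest nicotine library was above the highest air library. Its log2 fold change of 1.14 ± 0.19 (SE) had the smallest p of the module, with an edgeR adjusted p of 0.0767. F13a1, the A chain of the clotting transglutaminase factor XIII, measured 69.6, 68.8 and 70.6 CPM in air and 145, 109 and 103 CPM in nicotine, again with no overlap. Its log2 fold change was 0.77 ± 0.15 (edgeR adjusted p = 0.169).

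Lyve1, the hyaluronan receptor, measured 25.8, 23.9 and 28.2 CPM in WT air and 49.5, 39.8 and 53.8 CPM in nicotine, without overlap, at a log2 fold change of 0.88 ± 0.24 (edgeR adjusted p = 0.270). Lyve1 is also a gene of lymphatic endothelium. The 6 lymphatic markers in the table (Ccl21a at 0 in 10 of 12 libraries) summed to 57.4 to 70.8 CPM in WT air and 70.9 to 153 CPM in WT nicotine, and Prox1, the factor that sets lymphatic identity, was at 1.61 to 2.14 CPM in air and 2.37 to 9.44 CPM in nicotine. Their part in the Lyve1 values was not tested.

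Folr2, a folate receptor of resident macrophages, stood at 5.74, 7.91 and 5.40 CPM in WT air and 13.8, 9.39 and 10.6 CPM in nicotine, with no overlap, and its log2 fold change was 0.82 ± 0.25 (edgeR adjusted p = 0.308). Timd4, a phosphatidylserine receptor, stood at 1.48, 1.15 and 0.645 CPM in air and 3.25, 4.11 and 1.55 CPM in nicotine, again apart, at a log2 fold change of 1.44 ± 0.52 (edgeR adjusted p = 0.404). Cd163, the haemoglobin scavenger receptor, measured 41.3, 30.4 and 42.4 CPM in air and 54.1, 48.0 and 44.6 CPM in nicotine. Its groups did not overlap, yet its change was 0.36 ± 0.22 in log2 units (edgeR adjusted p = 0.615). Pf4 did overlap, at 20.5, 25.5 and 31.5 CPM in air and 39.5, 41.6 and 18.5 CPM in nicotine, for 0.36 ± 0.33 (edgeR adjusted p = 0.751). The 5 platelet markers summed to 54.5, 130 and 102 CPM in air and 77.8, 133 and 36.2 CPM in nicotine. The part of platelets in the Pf4 values was not tested. Cbr2 was the resident-type gene on the other side. It measured 128, 173 and 145 CPM in air and 120, 110 and 112 CPM in nicotine, the air libraries all being higher, at -0.38 ± 0.15 (edgeR adjusted p = 0.423). Smooth muscle markers summed to 31945, 48252 and 43318 CPM in air and 29530, 29185 and 33550 CPM in nicotine. The part of smooth muscle in the Cbr2 values was not tested.

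**Figure D1:**
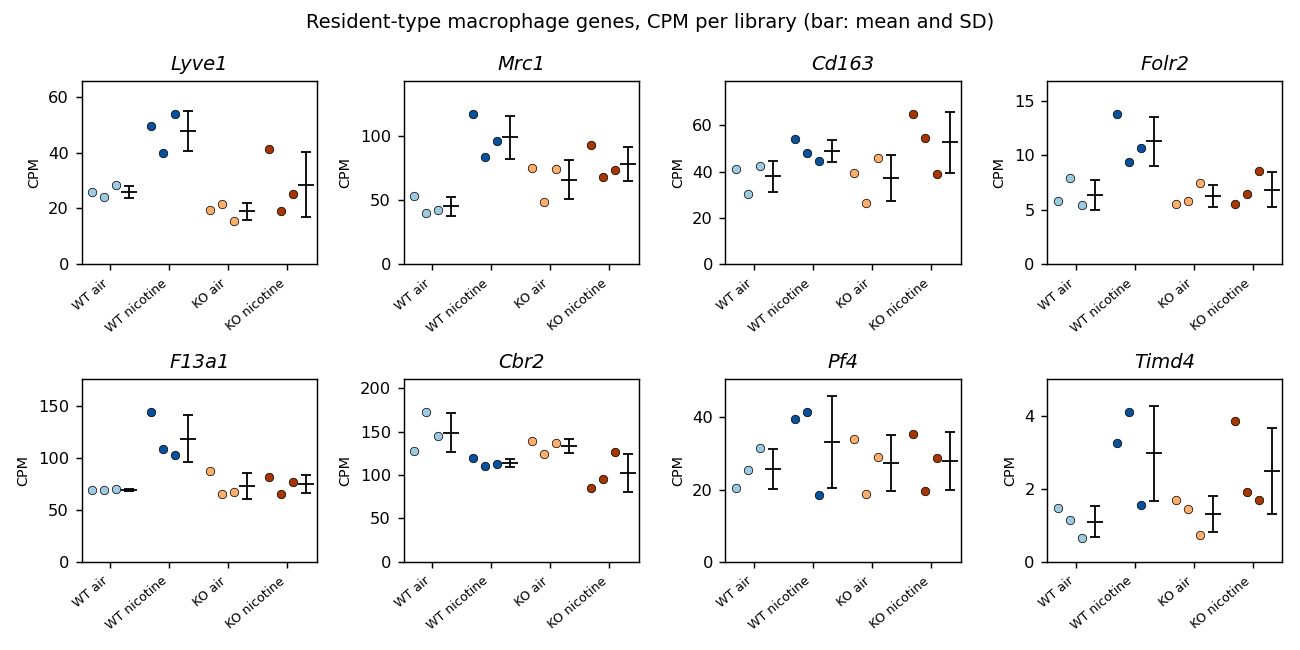
CPM of the 8 resident-type genes in each of 12 libraries by group (points), with mean and SD beside them (n = 3). In WT, nicotine libraries sit above air libraries for Lyve1, Mrc1, Cd163, Folr2, F13a1 and Timd4, and below for Cbr2, while in KO the groups overlap for all 8.

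The 5 recruited or lipid-associated genes were all above 0 in log2 fold change. Their median was 0.38, against 0.80 for the resident-type genes. None reached an unadjusted edgeR p under 0.05 (5.43% of all genes higher, 4.41% lower). None had groups that did not overlap (7.13% higher, 6.05% lower). With standard errors of 0.48 to 0.64 for Ccr2, Itgax and Trem2, this does not show that they stayed level. Ccr2, the receptor for the monocyte chemokine CCL2, measured 6.88, 3.79 and 5.57 CPM in WT air and 10.7, 3.94 and 6.53 CPM in nicotine, at 0.38 ± 0.48 (edgeR adjusted p = 0.829). Itgax, the integrin chain CD11c, measured 1.57, 1.07 and 1.69 CPM in air and 4.62, 2.01 and 0.572 CPM in nicotine, at 0.72 ± 0.64 (edgeR adjusted p = 0.747). The nicotine values of both genes span those of air, with library 6 at the top. Without WT nicotine 6 the log2 fold changes were -0.029 for Ccr2 and -0.15 for Itgax.

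Trem2, a lipid-binding receptor, measured 1.31, 0.494 and 0.807 CPM in air and 0.984, 1.09 and 0.898 CPM in nicotine, at 0.19 ± 0.60 (edgeR adjusted p = 0.940). Gpnmb, a glycoprotein of lipid-loaded macrophages, measured 20.8, 24.6 and 25.6 CPM in air and 24.8, 33.1 and 26.3 CPM in nicotine, at 0.25 ± 0.15 (edgeR adjusted p = 0.613). Lgals3, galectin-3, measured 7.57, 4.70 and 10.1 CPM in air and 10.9, 7.04 and 13.3 CPM in nicotine, at 0.48 ± 0.32 (edgeR adjusted p = 0.648). All 3 genes overlapped between exposures. The recruited median minus the resident median was -0.42 in log2 units, and it ranged from -0.55 to -0.18 when each library was left out in turn, the latter without WT air 8.

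**Figure D2:**
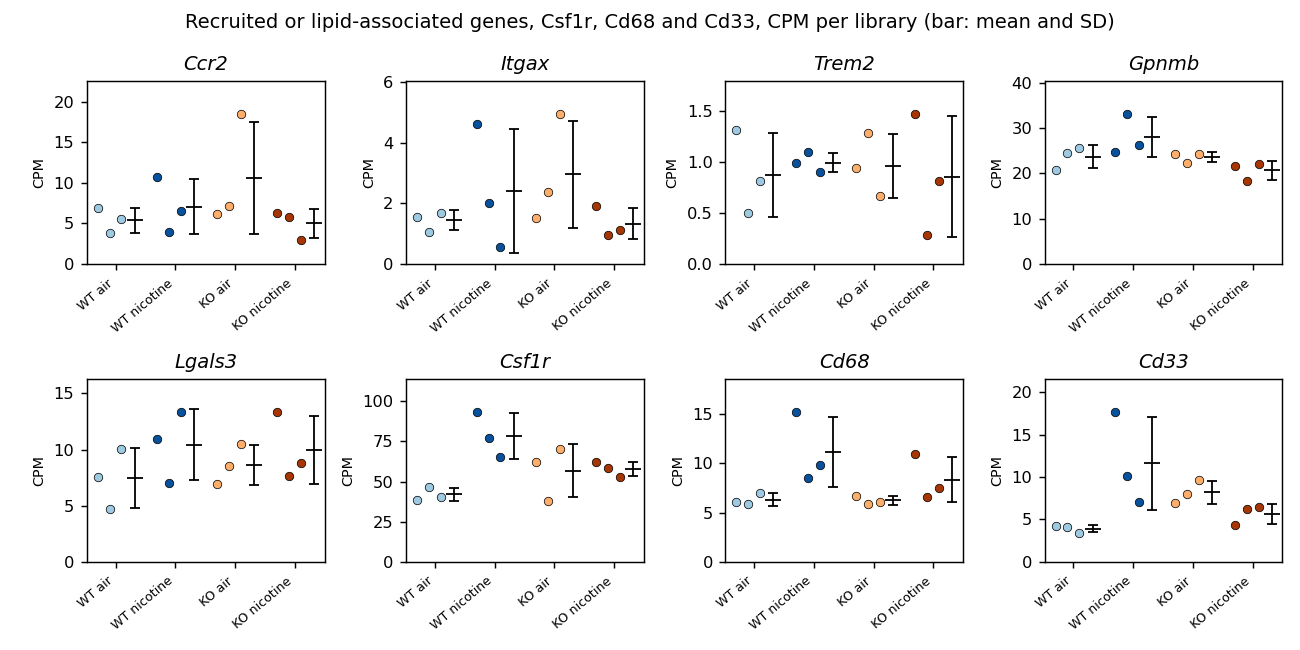
CPM of the 5 recruited or lipid-associated genes and of Csf1r, Cd68 and Cd33 in each of 12 libraries by group (points), with mean and SD beside them (n = 3). The 5 recruited or lipid-associated genes overlap between WT air and WT nicotine, whereas Csf1r, Cd68 and Cd33 do not.

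Among the 11 lineage genes 10 were above 0 in WT nicotine, with a median of 0.78. Csf1r, the receptor for the growth factors CSF1 and IL-34, measured 38.7, 46.7 and 40.4 CPM in air and 93.5, 77.1 and 65.0 CPM in nicotine, without overlap, at a log2 fold change of 0.90 ± 0.20 (edgeR adjusted p = 0.194). Cd68 measured 6.09, 5.85 and 7.02 CPM in air and 15.2, 8.55 and 9.80 CPM in nicotine, again apart, at 0.82 ± 0.26 (edgeR adjusted p = 0.335). Adgre1 overlapped, at 12.0, 8.16 and 11.4 CPM in air and 26.7, 15.6 and 11.2 CPM in nicotine, for 0.76 ± 0.32 (edgeR adjusted p = 0.483). Spi1 overlapped too, at 5.40, 7.09 and 4.92 CPM against 9.74, 7.29 and 6.37 CPM, for 0.42 ± 0.31 (edgeR adjusted p = 0.680). Mpeg1, a pore-forming protein of phagosomes, measured 7.75, 11 and 7.02 CPM in air and 22.3, 13 and 10.8 CPM in nicotine, overlapping by 1 library, for 0.84 ± 0.40 (edgeR adjusted p = 0.526). Tyrobp, the adaptor DAP12 that TREM2 and other receptors signal through, measured 2.61, 4.53 and 4.03 CPM in air and 6.10, 8.05 and 5.14 CPM in nicotine, with no overlap, for 0.78 ± 0.33 (edgeR adjusted p = 0.471).

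The other 5 lineage genes are given by range. Itgam, the integrin chain CD11b, lay at 11.4 to 12.7 CPM in WT air and 17.4 to 37.8 CPM in nicotine, and Laptm5, a lysosomal transmembrane protein of blood cells, at 20.3 to 21.8 and 23.1 to 55.8 CPM, and neither overlapped. Maf, a transcription factor of resident macrophages, lay at 49.8 to 58.9 CPM in air and 51.1 to 68.8 CPM in nicotine. Cx3cr1, the fractalkine receptor, and Aif1, an actin-binding protein, were scarce at 0.824 to 6.60 and 0.980 to 3.16 CPM over all libraries, and both overlapped.

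Cd33, a sialic acid-binding receptor of the recognition group, measured 4.18, 4.12 and 3.39 CPM in WT air and 17.7, 10.1 and 7.10 CPM in WT nicotine. All nicotine libraries were higher, and the log2 fold change was 1.57 ± 0.32 (edgeR adjusted p = 0.174). All 6 recognition genes were above 0. Ms4a7, a membrane-spanning protein of macrophages, lay at 0.968 to 1.81 CPM in air and 2.12 to 3.35 CPM in nicotine without overlap. Cd14, the co-receptor for lipopolysaccharide, Clec10a, a galactose-type lectin, Siglec1, a sialoadhesin of resident macrophages, and Ms4a6c overlapped, and reads of the near-identical Ms4a6 genes may be split between them.

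The lysosomal genes were all above 0. Lyz2 lay at 92.3 to 117 CPM in WT air and 142 to 200 CPM in nicotine, with no overlap. Lyz1, its close copy on the same chromosome, ran from 2.02 to 20.6 CPM over all libraries, and how the counting shared reads between the pair is not known. Ctss, the protease cathepsin S, overlapped, at 17.3 to 26.2 CPM against 23.4 to 57.1 CPM. The scavenging genes had a median of -0.12, with 2 of 5 above 0. Axl lay at 547 to 754 CPM in air and 572 to 613 CPM in nicotine, Gas6 at 319 to 456 and 335 to 336 CPM, and Mertk at 129 to 182 and 94.5 to 227 CPM. Stab1 lay at 132 to 143 and 121 to 217 CPM, and only Msr1, the class A scavenger receptor, did not overlap, at 2.58 to 4.26 and 4.78 to 7.76 CPM.

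**Figure D3:**
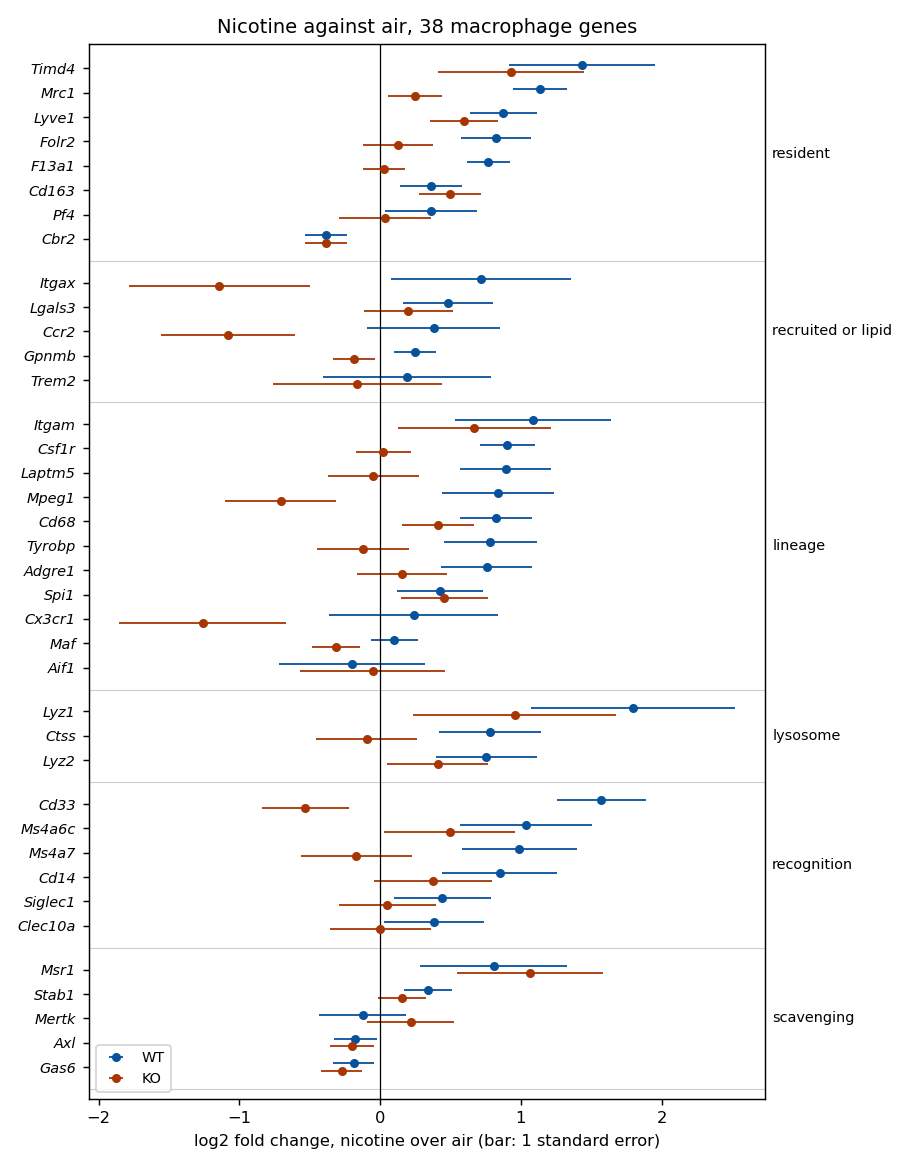
Log2 fold change of nicotine over air for the 38 genes, with WT and KO side by side and 1 standard error as bars, grouped by role. In WT 33 of 38 values lie above 0, with a median of 0.76, and in KO 22 do, with a median of 0.03.

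WT nicotine 6 was the highest of the 6 WT libraries for 22 of 38 members, against 19.6% of all genes. Without it, 31 members were above 0 and their median was 0.42. That library also had the highest sum of 8 neutrophil markers, 79.2 CPM where other WT libraries had 6.09 to 28.3 CPM, while Ly6g was at 0 in it. Its red cell markers summed to 19366 CPM, where other WT libraries had 4398 to 11007 CPM. Adipocyte markers summed to 748 to 3251 CPM in WT air and 2836 to 3741 CPM in WT nicotine, and smooth muscle markers to 31945 to 48252 and 29185 to 33550 CPM. With each library's adipocyte score as a covariate, 34 members were above 0. Members at an unadjusted edgeR p under 0.05 in either direction numbered 11 with the covariate and 15 without it. Genes called over all genes numbered 0 and 3. The share of all genes at the unadjusted p was not computed with the covariate. Besides the lymphatic markers above (57.4 to 70.8 and 70.9 to 153 CPM), sums of 4 other lists of cell type markers did not overlap in WT. In air and nicotine, fibroblast markers summed to 4405 to 5299 and 5418 to 6887 CPM, and mast cell markers to 13.9 to 30.8 and 32.8 to 39.9 CPM. Dendritic cell markers summed to 26.4 to 33.3 and 34.0 to 36.7 CPM, and mesothelial markers to 2.66 to 7.58 and 9.39 to 10.7 CPM. The part of these cell types, and of neutrophils and red cells, in the member values was not tested.

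Mrc1, F13a1 and Cd33, with a promoter entry each, lead the ranking by p in WT nicotine, and they were chosen for print after their values were seen. The RefSeq sequences of the GRCm38.p6 build run from 250 bases before to 50 bases after the start, 5′ to 3′ on the gene's strand. Capitals mark GAGGAA, the core of PU.1 sites, or TTCCTC, the same core on the other strand. F13a1 has 2 listed starts and the one shown is the first by position.
Mrc1, chr2:14229164-14229463, plus strand: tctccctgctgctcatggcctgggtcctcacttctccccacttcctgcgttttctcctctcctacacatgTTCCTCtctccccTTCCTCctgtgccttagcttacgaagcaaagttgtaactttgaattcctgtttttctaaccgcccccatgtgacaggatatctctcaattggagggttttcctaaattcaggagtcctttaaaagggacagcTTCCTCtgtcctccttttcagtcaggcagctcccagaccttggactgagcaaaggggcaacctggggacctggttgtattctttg
F13a1, chr13:37049164-37049463, minus strand: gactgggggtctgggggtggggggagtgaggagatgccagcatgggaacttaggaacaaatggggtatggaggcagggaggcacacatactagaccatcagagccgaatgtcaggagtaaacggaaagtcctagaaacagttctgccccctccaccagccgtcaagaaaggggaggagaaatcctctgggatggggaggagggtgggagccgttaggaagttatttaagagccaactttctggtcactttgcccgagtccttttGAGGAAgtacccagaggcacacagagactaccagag
Cd33, chr7:43533122-43533421, minus strand: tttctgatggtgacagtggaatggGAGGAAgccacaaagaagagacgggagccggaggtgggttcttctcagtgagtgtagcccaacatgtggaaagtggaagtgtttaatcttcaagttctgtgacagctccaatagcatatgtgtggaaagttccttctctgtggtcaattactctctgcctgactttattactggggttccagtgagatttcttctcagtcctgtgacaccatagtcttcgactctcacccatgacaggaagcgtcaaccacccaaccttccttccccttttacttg
Mrc1 holds 3 matches and the other sequences 1 each. Across the module, 29 of 39 members had an entry, with 33 promoters, of which 17 (51.5%) held a match on either strand. Of 32851 mouse promoters of the same length, 28.3% held one. The letters TGCTGA or TCAGCA, a core of MAF sites, were in 8 of 33 member promoters (24.2%) and in 19.5% of all. A match describes the sequence and shows no binding.

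Companion genes, listed to give the rest of the pathway, also lay mostly above 0 in WT nicotine: 45 of 52 tested (49.4% of all genes), with a median of 0.55, and 14 at an unadjusted edgeR p under 0.05, all higher (5.43% of all genes). The monocyte and recruitment list had 7 of 10 above 0. From it Ccl2, the chemokine that binds CCR2, measured 1.39, 0.494 and 0.887 CPM in air and 9.05, 4.19 and 7.68 CPM in nicotine, for a log2 fold change of 2.90 ± 0.63 (edgeR adjusted p = 0.194). All nicotine values exceeded all air values. Fcgr3, an activating Fc receptor, differed by 1.12 ± 0.24 (edgeR adjusted p = 0.194) and C1qc, a subunit of complement C1q, by 0.79 ± 0.23 (edgeR adjusted p = 0.301). Cebpb, a myeloid transcription factor, differed by 1.21 ± 0.26 (edgeR adjusted p = 0.194) and Mgl2, a lectin of resident-type cells, by 0.98 ± 0.29 (edgeR adjusted p = 0.296). Abca1, a cholesterol exporter, differed by 0.65 ± 0.19 (edgeR adjusted p = 0.295) and Ccl7, another ligand of CCR2, by 1.28 ± 0.53 (edgeR adjusted p = 0.462). None of the 52 passed the adjusted threshold in edgeR. In KO nicotine 24 of the 52 were above 0, with a median of -0.03, and 2 were higher and 2 lower at an unadjusted edgeR p under 0.05. A list of 9 immediate early genes, such as Fos and Egr1, is not particular to macrophages. In WT nicotine all 9 were above 0, with a median of 0.89 and 4 at an unadjusted edgeR p under 0.05. In KO nicotine 3 of the 9 were above 0, with a median of -0.08. Whether the companion values share the source of these was not tested.

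In the authors' deposited table for WT, 7 of 38 members had an adjusted p under 0.05, against 0.809% of the 15212 genes with an adjusted p. Those 7 were Lyve1, Mrc1, F13a1, Csf1r, Itgam, Lyz2 and Cd33. In the authors' deposited table Mrc1 had a log2 fold change of 1.14 with an adjusted p of 4.63e-05, and Cd33 had 1.57 with 0.00988. In the authors' deposited table for WT 33 members were higher in nicotine.

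In KO aorta the same exposure gave no member past the adjusted threshold in edgeR (0 of 38 in either direction, as for 0% of all genes), and neither DESeq2 nor limma voom called one. Above 0 were 22 of 38 members (51.5% of all genes) and the median was 0.03. At an unadjusted edgeR p under 0.05, Lyve1 and Cd163 were higher (2.48% of all genes) and Cbr2 and Ccr2 lower (2.1%). No member had all nicotine libraries above all air libraries (5.13% of all genes), and Gpnmb and Cd33 had all of them below (5.55%).

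Lyve1 measured 19.3, 21.7 and 15.5 CPM in KO air and 41.4, 19.0 and 25.0 CPM in KO nicotine, for 0.60 ± 0.24 (edgeR adjusted p = 0.878). Cd163 measured 39.4, 26.4 and 46.1 CPM and 64.9, 54.6 and 38.8 CPM, for 0.50 ± 0.22 (edgeR adjusted p = 0.878). Both overlapped, with library 3 at the top. Cbr2 measured 139, 125 and 137 CPM in air and 85.1, 95.2 and 126 CPM in nicotine, for -0.39 ± 0.15 (edgeR adjusted p = 0.878), close to its value in WT. Mrc1 overlapped at 75.2, 48.5 and 74.1 CPM against 93.0, 68.0 and 73.6 CPM, for 0.25 ± 0.19 (edgeR adjusted p = 0.878).

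F13a1 was nearly level in KO, at 87.9, 64.9 and 67.7 CPM in air and 82.1, 65.4 and 77.3 CPM in nicotine. Its log2 fold change was 0.03 ± 0.15 (edgeR adjusted p = 0.981). Folr2 stood at 5.53, 5.81 and 7.43 CPM in air and 5.50, 6.39 and 8.58 CPM in nicotine, for 0.13 ± 0.25 (edgeR adjusted p = 0.942). Both genes overlapped. Pf4 stood at 34.0, 18.8 and 29.0 CPM and 35.4, 19.5 and 28.8 CPM, for 0.034 ± 0.33 (edgeR adjusted p = 0.989). Timd4 stood at 1.70, 1.45 and 0.743 CPM and 3.85, 1.91 and 1.70 CPM, for 0.93 ± 0.52 (edgeR adjusted p = 0.878). These overlapped as well, and Timd4 was highest in library 3.

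Ccr2 measured 6.12, 7.09 and 18.5 CPM in KO air and 6.23, 5.82 and 2.99 CPM in nicotine, for -1.08 ± 0.48 (edgeR adjusted p = 0.878). Itgax measured 1.53, 2.39 and 4.95 CPM and 1.92, 0.954 and 1.13 CPM, for -1.14 ± 0.64 (edgeR adjusted p = 0.878). KO air 7 held the highest value of both genes. Gpnmb, at 24.2, 22.3 and 24.3 CPM in air and 21.7, 18.3 and 22.2 CPM in nicotine, and Cd33, at 6.89, 8.03 and 9.66 CPM against 4.31, 6.20 and 6.47 CPM, had every nicotine library below air. Their log2 fold changes were -0.19 ± 0.15 and -0.53 ± 0.31 (edgeR adjusted p = 0.878 each). Trem2 overlapped, at 0.935, 1.28 and 0.660 CPM and 1.47, 0.286 and 0.809 CPM, for -0.16 ± 0.60 (edgeR adjusted p = 0.970). So did Lgals3, at 6.89, 8.55 and 10.5 CPM and 13.4, 7.63 and 8.82 CPM, for 0.20 ± 0.32 (edgeR adjusted p = 0.927).

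Lineage genes overlapped between exposures in KO too. Spi1 measured 6.97, 4.61 and 4.62 CPM in air and 10.8, 6.39 and 5.10 CPM in nicotine, for 0.46 ± 0.31 (edgeR adjusted p = 0.878). Adgre1 measured 14.3, 11 and 21.8 CPM and 21.3, 17.4 and 13.8 CPM, for 0.15 ± 0.32 (edgeR adjusted p = 0.946). Cd68 measured 6.72, 5.90 and 6.11 CPM and 10.9, 6.58 and 7.45 CPM, for 0.41 ± 0.26 (edgeR adjusted p = 0.878). Library 3 held the highest nicotine value of all 3 genes. Tyrobp measured 6.38, 4.70 and 8.50 CPM in air and 8.61, 4.58 and 4.86 CPM in nicotine, for -0.12 ± 0.33 (edgeR adjusted p = 0.959).

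The recruited or lipid-associated median was -0.19 and the resident-type median 0.19 in KO, a difference of -0.37. KO nicotine 3 was the highest KO library for 20 of 38 members (22.1% of all genes). It also held 2373 CPM of hepatocyte markers and 196 CPM of skeletal muscle markers, cell types foreign to the aortic wall, where other KO libraries had 48.6 to 444 and 8.25 to 35.5 CPM. Without it, 11 of 38 members were above 0, their median was -0.16 and the recruited minus resident difference was -0.94. The number at an unadjusted p under 0.05 in either direction, 4 with all libraries, was 1 without KO air 7, 9 without KO nicotine 5, and 2 to 6 without each of the others. The share of all genes at that p was not computed with a library left out, so these counts describe the fits only. Without KO air 7 the median was 0.18. The part of that tissue in the member values was not tested. In the authors' deposited table for KO no member had an adjusted p under 0.05 (0.0407% of its genes did).

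The interaction of nicotine and genotype tests whether the 2 responses differ. No member passed in edgeR (0 of 38, as for 0% of all genes in either direction) or in limma voom, and DESeq2 called Cd33 (0.0616% of genes) with an adjusted p of 0.0327. The KO response minus the WT response was below 0 for 33 of 38 members (52.9% of all genes were above 0), with a median of -0.42. At an unadjusted edgeR p under 0.05, 6 were lower (2.58% of all genes), and none higher (1.85%). Cd33 had the largest of them, -2.10 ± 0.44 (edgeR adjusted p = 0.777), and then Mpeg1 with -1.54 ± 0.56, Ccr2 with -1.46 ± 0.67, Mrc1 with -0.89 ± 0.27, Csf1r with -0.88 ± 0.28 and F13a1 with -0.74 ± 0.21 (edgeR adjusted p = 0.999 each). Csf1r in KO lay at 62.1, 38.1 and 70.2 CPM in air and 61.9, 58.2 and 53.1 CPM in nicotine, and Mpeg1 at 10.9, 13.8 and 27.7 and 15.3, 9.54 and 7.36 CPM. Both overlapped in KO. Recruited and resident medians differed by -0.02 in this contrast, and its sign depended on the library left out.

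Without KO nicotine 3 the interaction median was -0.83. The count at an unadjusted p under 0.05 was 13 without KO nicotine 3, 15 without WT nicotine 12, 10 without KO nicotine 5 and 4 without KO air 7. Here too the share of all genes was not computed, so no change particular to the members is read from the counts.

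KO against WT was compared next in each exposure. In air no member passed the adjusted threshold in edgeR (0 of 38, as for 0% of all genes), in DESeq2 (0.089% of genes) or in limma voom. Above 0 were 27 of 38 members (50.2% of all genes), with a median of 0.19. At an unadjusted edgeR p under 0.05, 6 were higher in KO (2.24% of all genes) and none lower (2.12%). All KO libraries exceeded all WT libraries for 6 members (5.75%), Itgam, Cx3cr1, Laptm5, Tyrobp, Cd33 and Ms4a7. Only Lyve1 lay the other way (6.06%).

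Cd33, at 3.39 to 4.18 CPM in WT air and 6.89 to 9.66 CPM in KO air, had a log2 fold change of 1.07 ± 0.32 (edgeR adjusted p = 0.995). Mrc1 had 0.55 ± 0.19, Mpeg1 1.03 ± 0.40 and Tyrobp 0.81 ± 0.33 (edgeR adjusted p = 0.995 each), and of these only Tyrobp did not overlap, at 2.61 to 4.53 and 4.70 to 8.50 CPM. KO air 7 was the highest KO library for 11 of 38 members (16.7% of all genes). It also carried 75.8 CPM of mesothelial markers, against 2.66 to 8.08 CPM in other air libraries, and whether that bears on its member values was not tested. Without KO air 7, 1 member was at an unadjusted p under 0.05 and the median was 0.086, and without WT air 9 the median was 0.30. Without WT air 8 there were 2, without WT air 10 there were 3 and without KO air 2 there were 10. For these fits the share of all genes at that p was not computed. The difference of recruited and resident medians, 0.19, was 0.57 without WT air 8.

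In nicotine no member passed in edgeR (0 of 38 higher, as for 0% of all genes, and 0 lower, as 0.00684% were) or in limma voom, and DESeq2 called F13a1 (0.659% of genes) with an adjusted p of 0.0251. Above 0 were 4 of 38 members (52.3% of all genes), and the median was -0.23. At an unadjusted edgeR p under 0.05, 6 were lower in KO (4.06% of all genes) and none higher (4.29%). In 5 members every KO library lay below every WT library (5.59%), and in none above (5.8%).

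F13a1, at 103 to 145 CPM in WT nicotine and 65.4 to 82.1 CPM in KO nicotine, had a log2 fold change of -0.66 ± 0.15 (edgeR adjusted p = 0.281). Cd33, at 7.10 to 17.7 and 4.31 to 6.47 CPM, had -1.03 ± 0.31 (edgeR adjusted p = 0.448). Gpnmb, at 24.8 to 33.1 and 18.3 to 22.2 CPM, had -0.44 ± 0.15 (edgeR adjusted p = 0.470). Folr2 and Csf1r were the other members without overlap, at 9.39 to 13.8 against 5.50 to 8.58 CPM and 65.0 to 93.5 against 53.1 to 61.9 CPM. Lyve1, at 39.8 to 53.8 and 19.0 to 41.4 CPM, overlapped by 1 library and had -0.74 ± 0.24 (edgeR adjusted p = 0.448).

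Members above 0 numbered 13 without WT nicotine 6, 12 without KO nicotine 4 and 10 without KO nicotine 5, and the median was -0.48 without KO nicotine 3 and -0.11 without KO nicotine 4. Without KO nicotine 3, 13 members were at an unadjusted p under 0.05, and the share of all genes in that fit was not computed. Neutrophil markers summed to 15.7 to 79.2 CPM in WT nicotine and 5.53 to 15.02 CPM in KO nicotine, without overlap, and 6 of 6 tested were below 0, with a median of -2.21 and 4 at an unadjusted edgeR p under 0.05. Hepatocyte markers summed to 20.04 to 129 CPM in WT nicotine and 48.6 to 2373 CPM in KO nicotine, and 6 of 6 were above 0, with a median of 3.57 and all 6 at an unadjusted edgeR p under 0.05. Red cell markers summed to 4398 to 19366 CPM in WT nicotine and 4999 to 7181 CPM in KO nicotine. Of 5 tested, 5 were below 0, with a median of -0.90 and 1 at an unadjusted edgeR p under 0.05. The part of neutrophil, hepatocyte and red cell markers in the member values was not tested. The comparisons share their groups, WT nicotine entering this one and the WT response alike, so they are given side by side and not as separate evidence.

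**Figure D4:**
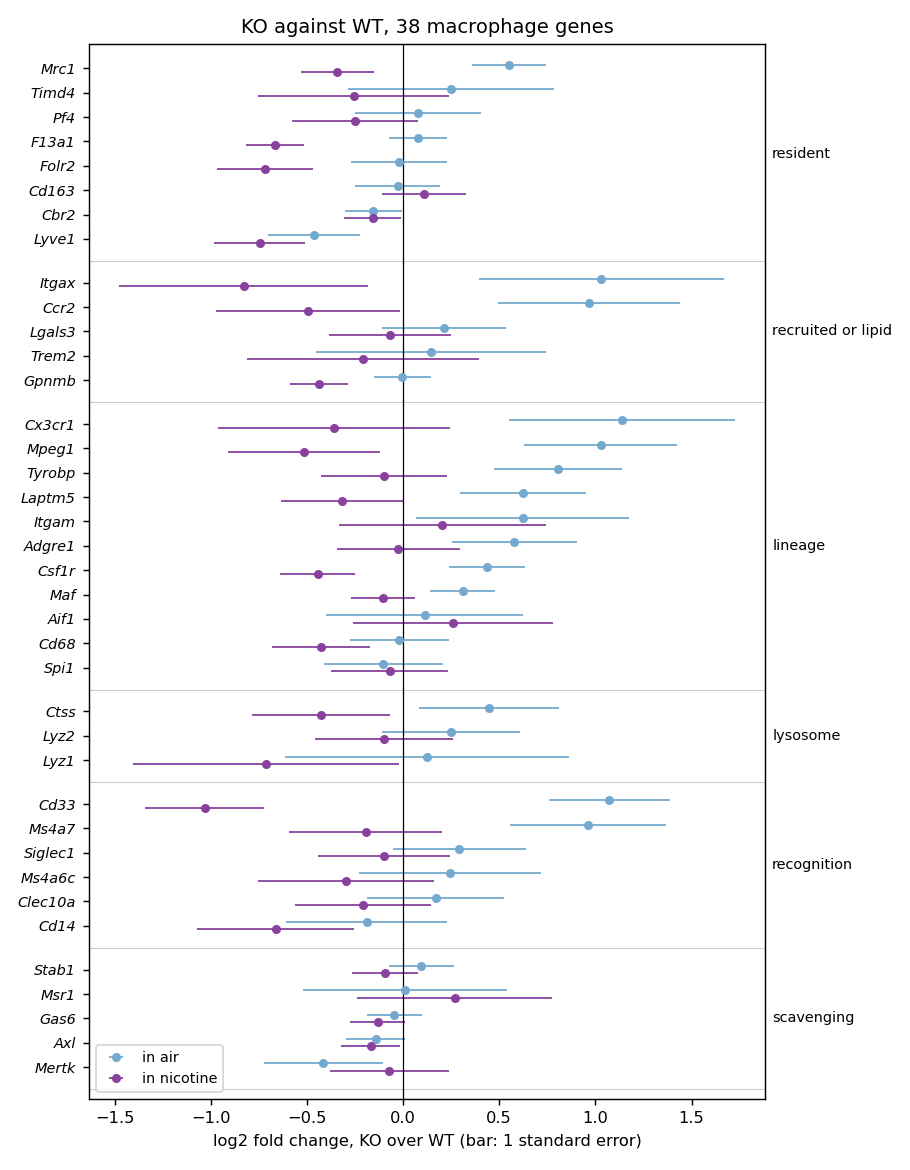
Log2 fold change of KO over WT for the 38 genes, in air and in nicotine, with 1 standard error as bars, grouped by role. In air 27 of 38 values lie above 0, and in nicotine 4 do.

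Summed over genes, resident-type transcripts reached 361 ± 12.8 CPM (SD, n = 3) in WT air, against 476 ± 57.2 CPM under nicotine. The KO libraries reached 364 ± 46.5 CPM under air and 374 ± 41.0 CPM under nicotine. Recruited or lipid-associated transcripts reached 38.8 ± 4.64, 49.0 ± 2.68, 46.7 ± 10.6 and 37.9 ± 6.09 CPM in WT air, WT nicotine, KO air and KO nicotine. All 3 WT nicotine libraries exceeded all WT air libraries in both sums. The ratio of the sums was 9.38 ± 1.20, 9.70 ± 0.625, 8.02 ± 1.91 and 9.93 ± 0.694, and all 4 groups overlapped. Cbr2, the resident-type gene below 0 under nicotine in both genotypes, averaged 149, 114, 134 and 102 CPM of the resident sum, groups ordered alike. Gpnmb averaged 23.7, 28.1, 23.6 and 20.7 CPM of the recruited sum. The ratio therefore leans on these genes, and it was not computed without them. Its overlap does not show that the balance of the other members stayed the same. As the members were selected with earlier results known, no p is given for these sums.

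**Figure D5:**
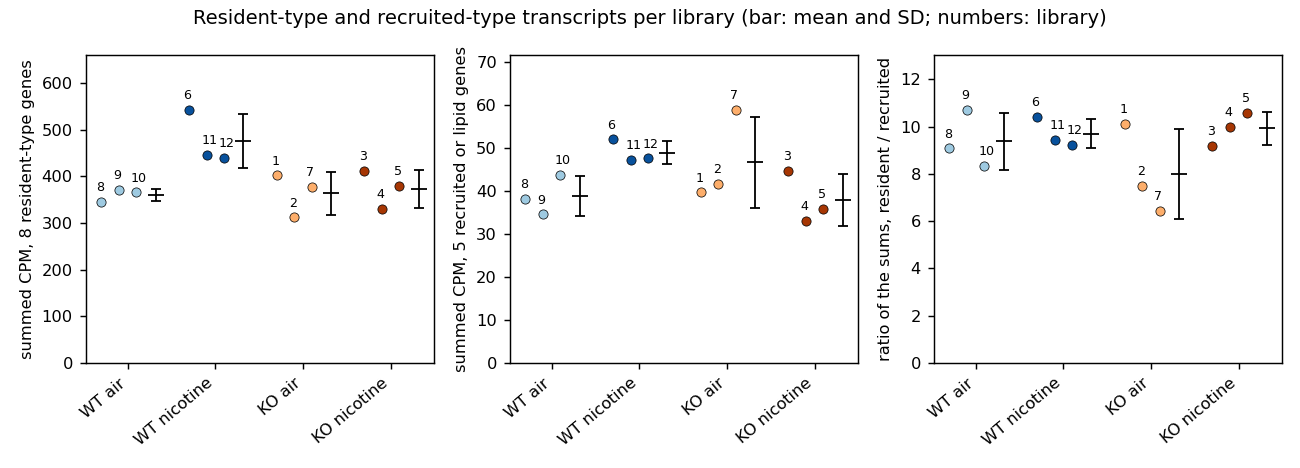
Summed CPM of 8 resident-type genes, of 5 recruited or lipid-associated genes, and their ratio, for each library (points, with library number) with mean and SD beside them (n = 3). Resident sums of WT nicotine, 440 to 542 CPM, lie above those of WT air, 346 to 370 CPM, while the ratios of all groups overlap.

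Across the 38 members, the mean of WT nicotine was the highest of the 4 groups for 24 and the lowest for 1, where 25.7 and 28.4% of all genes had it so. WT air was the lowest for 21 members (25.6% of all genes). The scatter within groups differed widely between genes, from 11.8% of the mean for Gpnmb and 12.3% for Gas6 to 68.4% for Itgax, 70.2% for Msr1 and 96.9% for Lyz1.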

How the data were processed

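RNA of thoracic aortas was sequenced on Illumina instruments in 12 libraries made with the SMART-Seq v4 kit, per the labels' protocols. Raw counts were deposited, and HTSeq with mm9 is named in the submitters' processing notes. For the aligner, annotation, strand setting and HTSeq version: not given in the sources used here. The authors' deposited tables hold a mean signal per gene (not used here), a log2 fold change, its log2 standard error, a test score, and unadjusted and adjusted p-values for nicotine against air, per the file headers, and their program is not stated.

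Library groups came from the labels. Counts were scaled by TMM and filtered by filterByExpr, and edgeR 4.0.16's robust quasi-likelihood model was fitted with 4 group means over all 12 libraries and 8 residual degrees of freedom. Benjamini-Hochberg adjustment ran over 14621 genes, called at 0.05. A standard error is the size of the log2 fold change divided by the root of its F statistic. Library pairs within a group differed by a chi-square of 8.28 to 68.6 per degree of freedom, more than the noise of counting reads. Alternatives were RLE size factors, no filter, DESeq2 1.42.0, limma 3.58.1's voom, an adipocyte covariate, only the compared groups, and leaving out each library. Exon lengths are of GENCODE M21 (GRCm38), while counts used mm9. The fit was tested on simulated data. R 4.3.3, Python 3.11.15, numpy 2.4.6, pandas 2.3.3 and matplotlib 3.10.9 were used.

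Members and lists were chosen with earlier results of these data known. By rule, values in every library are given for the resident and recruited members, Csf1r, Spi1, Adgre1 and Cd68, and the 4 members with the smallest p per contrast. Other members are given by range, and companion genes up to 2 a list by smallest p. A gene that the rule takes is not reported here.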

Additional observations from a re-analysis of the deposited data

Results flagged for a closer look

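Cd33, the sialic acid-binding receptor, was apart in opposite directions in the 2 genotypes. Every WT nicotine library was above every WT air library, and every KO nicotine library was below every KO air library. The log2 fold change was 1.57 ± 0.32 in WT (edgeR adjusted p = 0.174) and -0.53 ± 0.31 in KO (edgeR adjusted p = 0.878). The share of all genes with this pattern was not computed. The interaction log2 fold change was -2.10 ± 0.44. It was tested and did not pass in edgeR (adjusted p = 0.777), while DESeq2 gave an adjusted p of 0.0327.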

How the results depend on the processing

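No paired analysis was possible because library numbers are unique and no groups share one. Of 1396 values recomputed for 108 gene results (20 named members in 5 contrasts and 8 companions in WT nicotine), 79 changed sign, 69 of them on leaving out 1 library, and none of these genes was called in any of the settings where its sign changed. Members called in WT nicotine numbered 3 with no filter on low counts (Mrc1, F13a1, Cd33), 4 with DESeq2 (those and Csf1r), and 0 to 1 when each library was left out (Mrc1 without WT air 8, Cd33 without WT nicotine 12). Calls over all genes also rose in these settings, from 3 in the main fit. They were 21 with no filter, 115 with DESeq2, 34 without WT air 8 and 14 without WT nicotine 12. DESeq2 called 1 member in the interaction (Cd33, among 9 genes called) and 1 in KO against WT in nicotine (F13a1, among 87). RLE size factors, limma voom, the adipocyte covariate and fits of only the compared groups called none in any contrast where they were run, nor did leaving KO nicotine 3 out of the shared spread of the WT comparison, a setting chosen after seeing the data. The median ranged with 1 library left out from 0.42 to 0.80 in WT nicotine, -0.16 (without KO nicotine 3) to 0.18 (without KO air 7) in KO nicotine, -0.83 to -0.29 in the interaction and -0.48 to -0.11 in KO against WT in nicotine. The recruited minus resident difference ranged from -0.94 to -0.30 in KO nicotine, -0.36 to 0.20 in the interaction, -0.046 to 0.57 in KO against WT in air and -0.18 to 0.12 in KO against WT in nicotine, so no direction is read from the last 3, and the cause was not tested.

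Of all 38 members, 30 kept their sign in every setting in WT nicotine, 18 in KO nicotine, 29 in the interaction, 20 in KO against WT in air and 17 in KO against WT in nicotine. Of the 20 named members alone, leaving out 1 library at a time, log2 fold changes crossed 0 in WT nicotine for Ccr2 (-0.029 to 0.68), Itgax (-0.15 to 1.20), Trem2 (-0.089 to 0.62). They did so in KO nicotine for Folr2 (-0.071 to 0.27), F13a1 (-0.053 to 0.17), Pf4 (-0.17 to 0.23), Trem2 (-0.77 to 0.24), Lgals3 (-0.062 to 0.36), Csf1r (-0.20 to 0.21), Adgre1 (-0.047 to 0.47), Tyrobp (-0.46 to 0.12). In the interaction they did so for Cd163 (-0.059 to 0.32), Cbr2 (-0.20 to 0.12), Trem2 (-0.96 to 0.049), Spi1 (-0.33 to 0.24). For KO against WT in air they did so for Cd163 (-0.21 to 0.17), Folr2 (-0.17 to 0.17), F13a1 (-0.064 to 0.16), Pf4 (-0.10 to 0.29), Timd4 (-0.024 to 0.54), Trem2 (-0.14 to 0.57), Gpnmb (-0.073 to 0.055), Lgals3 (-0.033 to 0.49), Spi1 (-0.32 to 0.066), Cd68 (-0.072 to 0.0595). For KO against WT in nicotine they did so for Cd163 (-0.059 to 0.28), Timd4 (-0.71 to 0.047), Itgax (-1.30 to 0.042), Trem2 (-0.81 to 0.19), Lgals3 (-0.33 to 0.15), Spi1 (-0.43 to 0.14), Adgre1 (-0.27 to 0.37), Tyrobp (-0.44 to 0.088). With the adipocyte covariate the sign turned for Ccr2 (-0.0065) and Trem2 (-0.0595) in WT nicotine, Tyrobp (0.047) in KO nicotine, Spi1 (-0.028) in the interaction, Folr2 (0.089) and Gpnmb (0.078) in KO against WT in air, and Adgre1 (0.0052) in KO against WT in nicotine. With limma voom it turned for Spi1 (-0.0046) in the interaction and Adgre1 (0.064) in KO against WT in nicotine, and with only the compared groups for Gpnmb (0.00095) in KO against WT in air. The lowest counts of Trem2 and Itgax in a library were 3 and 7.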
